A study of Mus musculus with 52 samples.

Results

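The peaks described here are sites of the cohesin subunit Rad21 in mouse embryonic fibroblasts (MEFs). Their midpoints lie away from protein-coding gene starts, and they carry no peak of the insulator protein CTCF. They were chosen from the list of Rad21 peaks in wild-type (wt) cells by 4 criteria. The peak lay on one of the 19 autosomes, it overlapped no CTCF wt peak by at least 1 bp, its midpoint was more than 1 kb from the 5′ end of every protein-coding gene, and it overlapped a peak of at least 1 of the other Rad21 lists. Of 67655 Rad21 wt peaks, 65769 were autosomal, 27262 of these had no CTCF wt peak, and 22189 of those were distal. The last criterion left 18997 peaks, which is 28.1% of the wt list. The number was 10184 with all lists kept at a score of at least 50. They are called distal non-CTCF peaks below, and the 33724 distal peaks that carry a CTCF wt peak and meet the other criteria are called distal CTCF peaks.

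The study profiled SmcHD1, an SMC-family protein that binds the inactive X, together with CTCF and Rad21 by ChIP-seq in clonal female MEFs from F2 embryos of a cross between M. m. domesticus FVB and M. m. Castaneus. Rad21 was profiled in wt clone Wt2A1, in clone Mut5A6 with the germline SmcHD1 null mutation MommeD1 (mut), and in clones A3-3 and D4 with SmcHD1 knocked out by CRISPR in culture (somKO). By the labels, the libraries of wt and of mut each come from a single clone. According to the paper and its supplement, the somKO clones were made from another wt line than Wt2A1 and are triploid, and the autosomes of the F2 lines are mosaics of the parental strains. The analysed data were 8 lists of peaks, each called on the merged reads of a group: 2 Rad21 libraries in wt, 2 in mut and 4 in somKO, 3 CTCF libraries for each of wt and mut with 4 for somKO, and 3 SmcHD1 libraries for each of wt and mut.

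Because every group has 1 merged list, no value has a replicate error and no test between genotypes could be made. The lists hold no read counts, so the depth is unknown. Main shares are given with 95% Wilson intervals, which cover counting error only, and some also with the spread over the 19 autosomes. For Rad21, the wt list held 67655 peaks, the mut list 66031 and the somKO list 89974, and a longer list overlaps more. Rad21 chromatin was fixed with a long crosslinker and formaldehyde and CTCF chromatin with formaldehyde alone, so the absence of a CTCF peak is the absence from that list and not a measurement of zero occupancy.

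Cohesin is a ring-shaped complex that extrudes chromatin loops and is halted at CTCF, which is why most strong cohesin sites coincide with CTCF. A second kind of cohesin site, described in many cell types, lacks CTCF and lies at enhancers, where cohesin is found with the loader Nipbl, Mediator and the transcription factors of that cell type. In fibroblasts a leading family of enhancer-binding factors is AP-1, a dimer of Fos and Jun proteins that recognises a short palindrome. No enhancer mark or transcription factor was measured in the lists analysed, so the peaks are only candidates for such elements.

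The DNA under the peaks was therefore searched for short motifs. AP-1 was written as TGANTCA and searched on both strands in the 300 bp around each midpoint. Of the 18997 distal non-CTCF peaks, 5516 held these letters. The sequences that follow are the central 150 bp of peaks nearest to 8 genes with many such peaks. For each gene it is the highest-scoring peak with AP-1 letters inside those 150 bp, as higher-scoring peaks nearest Myc hold the letters only farther from the midpoint. They are shown because the AP-1 letters, in capitals, were more frequent in these peaks than in each class they were compared with. Sequences are from RefSeq's GRCm38, the build of the lists (mm10), and these 8 were chosen after the values were seen.
Peak nearest Myc, chr15:62331619-62331768, + strand: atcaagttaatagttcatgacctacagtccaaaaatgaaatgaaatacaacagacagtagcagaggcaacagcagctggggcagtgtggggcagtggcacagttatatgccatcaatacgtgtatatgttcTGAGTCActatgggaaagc
Peak nearest Klf6, chr13:5345906-5346055, + strand: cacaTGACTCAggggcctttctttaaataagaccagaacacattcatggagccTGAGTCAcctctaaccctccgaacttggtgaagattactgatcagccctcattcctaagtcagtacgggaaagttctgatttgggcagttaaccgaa
Peak nearest Marcks, chr10:37616636-37616785, + strand: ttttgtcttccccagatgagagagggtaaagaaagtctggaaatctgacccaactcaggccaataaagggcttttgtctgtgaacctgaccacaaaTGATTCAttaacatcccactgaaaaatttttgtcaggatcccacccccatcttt
Peak nearest Zfp36l1, chr12:79874407-79874556, + strand: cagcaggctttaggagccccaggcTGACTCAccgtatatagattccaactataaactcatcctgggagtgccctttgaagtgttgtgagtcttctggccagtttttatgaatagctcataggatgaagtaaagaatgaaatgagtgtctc
Peak nearest Efnb2, chr8:8602684-8602833, + strand: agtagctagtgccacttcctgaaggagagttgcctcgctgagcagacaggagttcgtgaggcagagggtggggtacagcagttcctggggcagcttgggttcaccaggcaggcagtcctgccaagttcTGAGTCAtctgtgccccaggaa
Peak nearest Fn1, chr1:71880618-71880767, + strand: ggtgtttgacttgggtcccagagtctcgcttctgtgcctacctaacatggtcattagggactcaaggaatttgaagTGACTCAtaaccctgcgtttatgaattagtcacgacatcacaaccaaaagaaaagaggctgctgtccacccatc
Peak nearest Med13l, chr5:118514198-118514347, + strand: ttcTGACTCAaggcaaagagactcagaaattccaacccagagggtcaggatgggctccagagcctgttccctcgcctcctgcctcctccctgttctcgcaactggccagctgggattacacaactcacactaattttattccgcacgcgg
Peak nearest Tbx3, chr5:119208645-119208794, + strand: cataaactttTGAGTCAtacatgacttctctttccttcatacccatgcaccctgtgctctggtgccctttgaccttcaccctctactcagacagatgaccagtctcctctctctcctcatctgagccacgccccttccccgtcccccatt

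All 8 peaks were present in the somKO Rad21 list and 7 were present in mut. The exception was the peak nearest Tbx3, a T-box transcription factor of limb and mammary development, which stood at percentile 88.5 of the scores in the wt list and 94.8 in somKO and overlapped no mut peak. A percentile here is the share of peaks of the same list with a lower or equal score. For mut and somKO it belongs to the overlapping peak of that list, which can be wider than the wt peak. The peak nearest Myc lay in an intron of the long noncoding gene Pvt1, 346 kb from the 5′ end of Myc. It stood at percentile 60.3 in wt, 56.1 in mut and 59.7 in somKO. The peak nearest Klf6 lay 516 kb from that gene and held 2 matches, at percentile 64.7 in wt, 62.9 in mut and 75.5 in somKO. The printed peaks nearest Myc and Efnb2 overlapped a CTCF peak in somKO, though none in wt. Those nearest Med13l and Tbx3 overlapped a SmcHD1 wt peak.

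Most peaks with the letters held a single match. One match was found in 4531 peaks (23.9%), 2 in 881 (4.64%), 3 in 92 (0.484%) and more than 3 in the rest of the 5516. A peak 59.0 kb from Hif1a, the oxygen-regulated transcription factor, held 4 matches, and its central 300 bp are shown as an example of several matches in a peak.
Peak nearest Hif1a, chr12:73842262-73842561, + strand: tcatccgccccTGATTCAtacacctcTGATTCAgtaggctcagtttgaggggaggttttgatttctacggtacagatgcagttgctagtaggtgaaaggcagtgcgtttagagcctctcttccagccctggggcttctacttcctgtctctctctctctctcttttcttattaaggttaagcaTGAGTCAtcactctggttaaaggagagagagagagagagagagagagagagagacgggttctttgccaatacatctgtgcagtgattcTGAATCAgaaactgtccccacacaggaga

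The letters of AP-1 were found in 29.0% of the distal non-CTCF peaks (28.4 to 29.7), with an SD of 1.89 over the autosomes. They were found in 10.5% of the distal CTCF peaks (10.2 to 10.8) and in 8.88% of the 7986009 windows of 300 bp that tile the autosomes. The 4964 peaks without CTCF within 1 kb of a 5′ end, which met the other criteria, held them in 4.94% (4.37 to 5.57). The share was highest in the distal non-CTCF peaks on this scale, and the intervals did not overlap. The core letters of the CTCF motif had the other order, at 5.27% of the distal non-CTCF peaks and 29.4% of the distal CTCF peaks. This order follows largely from the choice, because the 2 classes were defined by CTCF wt peaks. Of all windows, 1.60% held the CTCF letters. In the distal non-CTCF peaks their share was 13.3% with overlap of 50% of both peaks. It was 3.41% for those found in both mut and somKO, and 2.37% without peaks over 50% soft-masked.

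**Figure D1:**
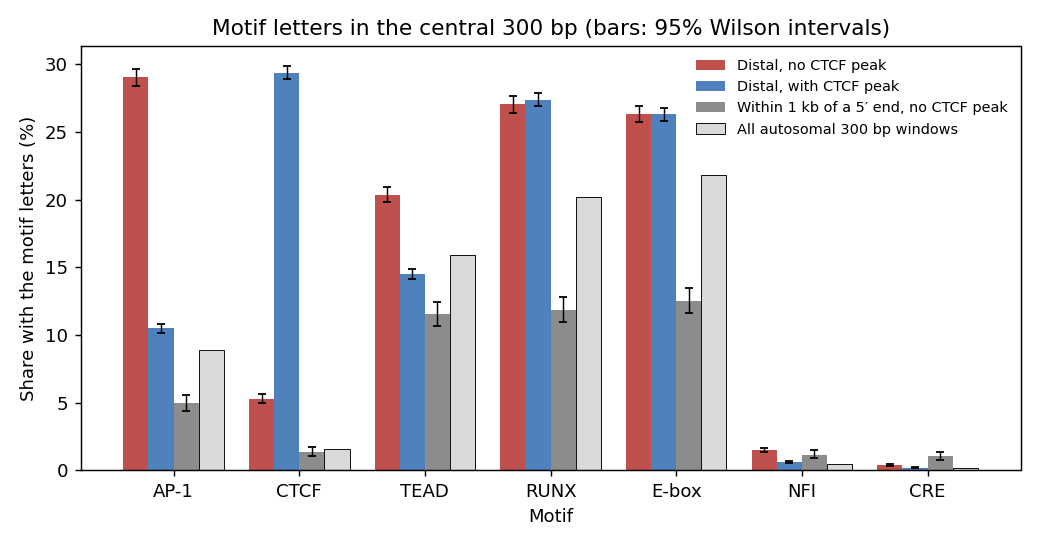
Share (%) of peaks with motif letters in the central 300 bp for distal peaks without CTCF, distal peaks with CTCF and peaks without CTCF within 1 kb of a 5′ end, with 95% Wilson intervals as bars, beside all autosomal 300 bp windows. AP-1 letters stood at 29.0% of the distal non-CTCF peaks and 10.5% of the distal CTCF peaks. CTCF letters had the other order, which follows largely from the use of CTCF wt peaks to define the classes.

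A further 5 motifs were added after the data were seen. TEAD letters (CATTCC), which are bound by the Hippo pathway factors, were in 20.4% of the distal non-CTCF peaks, 14.5% of the distal CTCF peaks and 15.9% of windows. Letters of the full NFI palindrome were in 1.48%, 0.623% and 0.478% in the same order. RUNX letters (TGTGGT) were at 27.1% and 27.4% in the distal classes and in 20.2% of windows. E-box letters (CATCTG) were at 26.3% in both classes and in 21.8% of windows. RUNX and E-box letters thus did not separate the peaks with CTCF from those without, and both classes stood above the windows. The CRE palindrome (TGACGTCA) is a target of CREB and ATF factors. It was in 0.358% of the distal non-CTCF peaks, 0.199% of the distal CTCF peaks and 0.168% of windows.

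AP-1 letters were concentrated at the middle of the peaks. In bins of 50 bp, they rose from 1.84 matches per 100 peaks at the bin centred 475 bp before the midpoint to 6.64 at 25 bp before it, and stood at 1.78 at 475 bp beyond it. In the distal CTCF peaks the same bins held 1.62, 2.03 and 1.52.

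**Figure D2:**
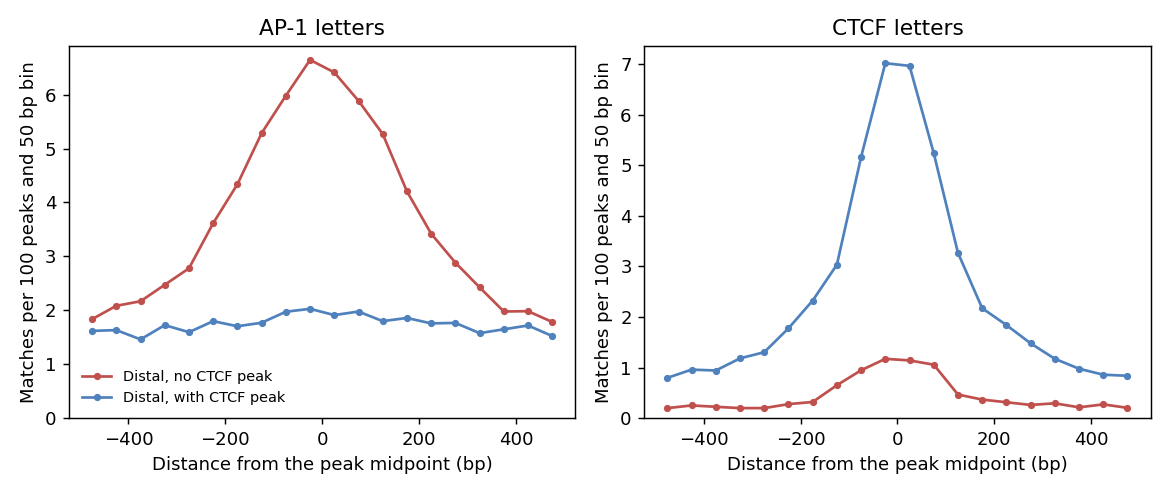
Matches of the AP-1 and CTCF letters per 100 peaks in bins of 50 bp, against the distance from the peak midpoint (bp), for distal peaks with and without CTCF. The AP-1 profile of the distal non-CTCF peaks is highest beside the midpoint, at 6.64 matches per 100 peaks.

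The share with AP-1 letters varied with position. It was 35.4% (34.2 to 36.7) in peaks more than 100 kb from a 5′ end and 19.5% (18.3 to 20.8) in those under 10 kb. It was 31.8% in intergenic, 28.5% in intronic and 18.3% in exonic peaks. The difference from peaks with CTCF was present within coarse groups of score. The wt list was cut by score into 4 groups of equal percentile range, numbered from the lowest. In group 1, 25.8% of all distal peaks without CTCF and 10.6% of those with CTCF held the letters. The shares were 32.8% and 11.9% in group 2, and 29.2% and 11.6% in group 3. Group 4 held only 50 distal peaks without CTCF, with 18% (9.77 to 30.8) against 9.11%. Peaks found in mut and somKO held the letters in 29.9%, and those found in somKO only in 28.3%.

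The CTCF lists of mut and somKO were not used to choose the peaks, but the CTCF wt list was. The 3 CTCF lists share an antibody and many sites. A low share here and a high share in the distal CTCF peaks therefore follow largely from the choice. Of the 18997 peaks, 1335 or 7.03% (6.67 to 7.40) overlapped a CTCF peak in mut, against 56.8% of all autosomal Rad21 wt peaks and 91.0% of the distal CTCF peaks. In somKO 2141 or 11.3% (10.8 to 11.7) did, against 61.7% of all and 98.0% of the distal CTCF peaks. A CTCF peak in mut or somKO was found at 2718, or 14.3%, against 63.9% of all. These 2718 peaks held CTCF letters in 21.2% (19.7 to 22.8) and AP-1 letters in 15.6% (14.3 to 17.0). The 16279 peaks with no CTCF peak in any of the 3 lists held them in 2.61% (2.38 to 2.87) and 31.3% (30.6 to 32.0). AP-1 letters were thus more frequent in the larger group, which no CTCF list reached, and CTCF letters in the smaller. The groups were split by CTCF peaks, so the order of the CTCF letters follows largely from the split. A CTCF wt peak lay within 1 kb of 18.3% of the peaks, and the median gap to the nearest one was 7.54 kb. With overlap of 50% of both peaks, 14.2% of the set had a CTCF peak in mut and 17.4% in somKO.

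The distal non-CTCF peaks ranked low in their own list. Their median score percentile in wt was 24.96, with quartiles at 12.4 and 39.2, against a median of 71.5 for the distal CTCF peaks. Score group 1 held 50.4% of them, group 2 38.2%, group 3 11.1% and group 4 0.263%. None was among the 1000 highest autosomal scores, and 2 were among the 6688 peaks at percentile 90 or above. The rule used the score indirectly, through the calling of the lists, so these ranks describe the set. The median percentile was 53.2 when overlaps had to cover 50% of both peaks, which admits wide Rad21 peaks over CTCF peaks, and 38.0 when all lists were kept at a score of at least 50.

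**Figure D3:**
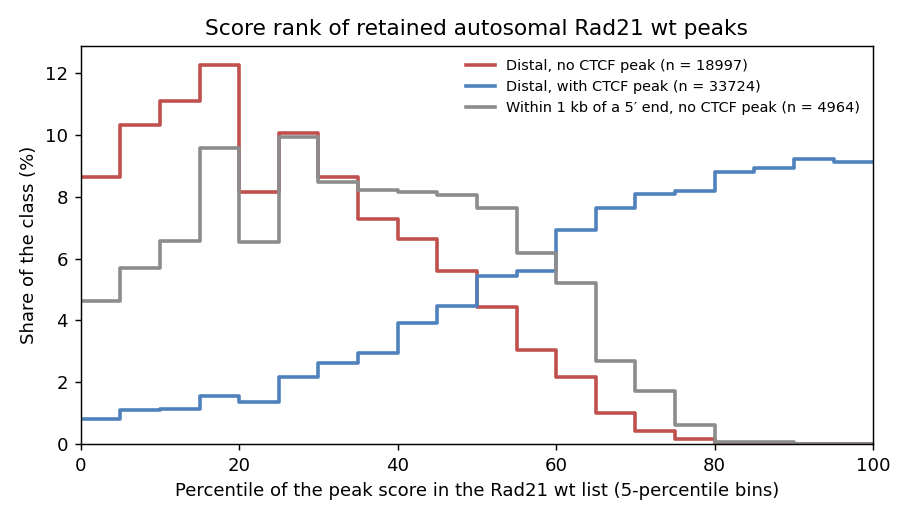
Share (%) of each class in bins of 5 percentiles of the peak score within the Rad21 wt list, for the 18997 distal peaks without CTCF, the 33724 distal peaks with CTCF and the 4964 peaks without CTCF within 1 kb of a 5′ end. The distal non-CTCF peaks lie in the lower part of the axis, with a median of 24.96, and the distal CTCF peaks rise towards its upper end.

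They were also narrow. Their median width was 446 bp, with quartiles at 311 and 719 bp, against 717 bp for the distal CTCF peaks. The peaks that overlapped them in the other lists had median percentiles of 37.7 in mut and 49.0 in somKO. Those peaks were wider, with median widths of 703 bp in mut and 1003 bp in somKO. A wide peak can overlap several distal non-CTCF peaks or reach beyond them, so its rank is not that of the same interval. Soft-masked repeats covered a median of 10.8% of a distal non-CTCF peak and 18.9% of a distal CTCF peak, and the median GC content of the central 300 bp was 46.0% and 45.3%.

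At the edges set by distance and by CTCF overlap, the peaks just inside and just outside had similar ranks. The 174 peaks whose midpoints lay up to 100 bp beyond the limit of 1 kb from a 5′ end had a median wt percentile of 29.2, and 189 peaks up to 100 bp short of it, which were left out, had 27.6. The 151 peaks with a CTCF wt peak at most 100 bp away had a median percentile of 12.4, as had the 147 distal peaks left out for an overlap of at most 100 bp. The 3192 distal peaks without CTCF that were in neither other Rad21 list ranked lower and were narrower than those kept, with a median percentile of 12.4 against 24.96 and a median width of 297 bp against 446 bp.

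Of the midpoints, 51.5% (50.8 to 52.2) lay in introns of annotated genes, 8.13% in exons and 40.4% in intergenic sequence. Introns make up 42.2% of the autosomal sequence, exons 4.96% and intergenic sequence 52.8%. The distal CTCF peaks were near the distal non-CTCF peaks, with 49.1% in introns, 8.30% in exons and 42.6% in intergenic sequence. The median distance to a protein-coding 5′ end was 43.7 kb, against 27.3 kb for the distal CTCF peaks, and 28.6% of the distal non-CTCF peaks and 19.2% of the distal CTCF peaks were more than 100 kb away.

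Each peak was assigned to the protein-coding gene with the nearest 5′ end, which names a position and not a target. Of 20807 autosomal genes, 6641 (31.9%) were nearest to at least 1 peak, 1095 (5.26%) to at least 5 and 285 to at least 10. Myc, the growth-promoting transcription factor at chr15:61985391-61990374, had the most, with 60. It was followed by Klf6 with 50, a zinc-finger factor of the early growth response, Marcks with 48, an actin-binding substrate of protein kinase C, and Zfp36l1 with 44, which promotes the decay of AU-rich mRNAs. Med13l, a Mediator subunit, had 43, Efnb2, an ephrin ligand, 39, and Zeb2, a repressor that drives mesenchymal identity, 37. The 25 genes with the most peaks together held 885 of them, or 4.66%.

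**Figure D4:**
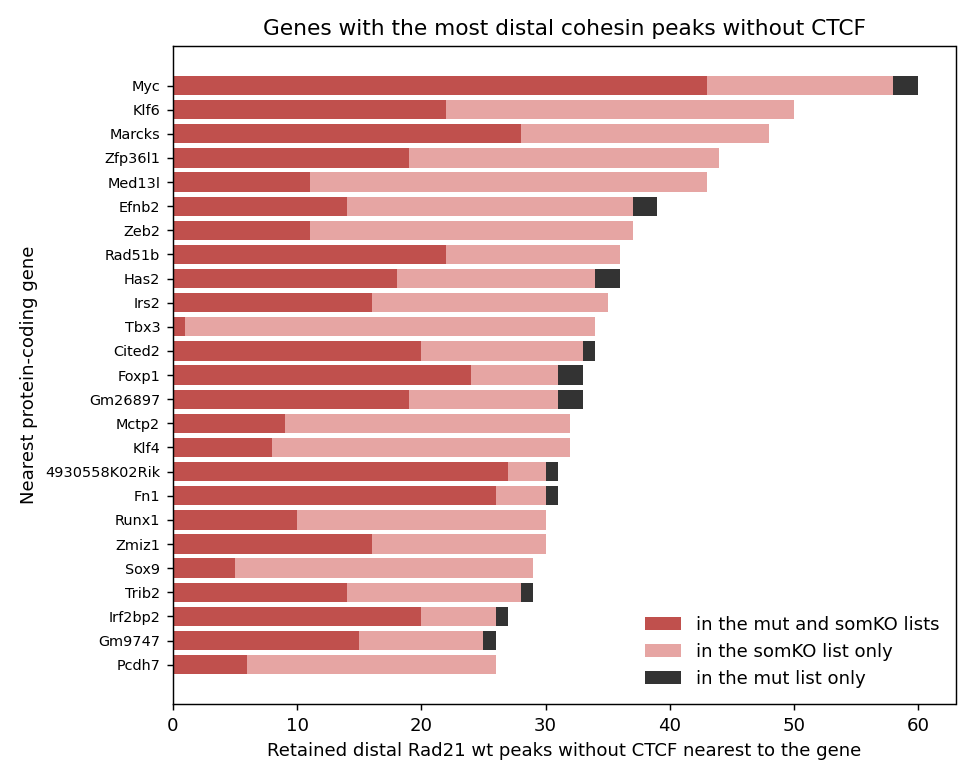
Number of retained distal Rad21 wt peaks without CTCF for the 25 genes with the most, split by whether the peak was found in the mut and somKO lists, in somKO only or in mut only. Myc has 60, of which 43 were in both lists, and Tbx3 has 34, of which 1 was in both.

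The leading genes by count stood mostly in long stretches. The stretch nearer to the 5′ end of Myc than to any other was 1443 kb long and held 4.16 distal non-CTCF peaks per 100 kb, against 0.771 per 100 kb over the autosomes. Of its 60 peaks, 29 lay in introns of Pvt1 and 19 were intergenic, and the farthest was 905 kb from Myc. The same stretch held 7 distal CTCF peaks, and Klf6 had 3 in a stretch of 969 kb. Fn1, which encodes the matrix glycoprotein fibronectin, had 31 distal non-CTCF and 2 distal CTCF peaks, and Has2, the synthase of the matrix polysaccharide hyaluronan, had 36 and 5. Over the autosomes the order was the reverse, with 1.37 distal CTCF peaks per 100 kb.

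Counted per length among the genes with at least 10 peaks, the densest was Lmna, which encodes the nuclear lamins A and C, with 12 peaks in a stretch of 35.6 kb. Next were Rara, a retinoic acid receptor, with 10 in 37.6 kb, and Ahnak with 16 in 60.5 kb. Myh9, the heavy chain of a non-muscle myosin, had 17 in 86.0 kb.

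To see which kinds of genes lay next to the peaks, 14 lists of genes were counted. Of 26 genes of the extracellular matrix, 25 (96.2%) were nearest to at least 1 peak, led by Fn1 with 31, Col5a1 with 20, and Col3a1 and Tnc with 17 each. Of 20 genes of the TGF-β and BMP pathways, 19 were, led by the receptor Tgfbr2 with 23, the activin subunit gene Inhba with 20 and the inhibitory Smad gene Smad7 with 17. Mesenchymal transcription factors were represented by 24 of 27 (88.9%), led by Zeb2 and by Runx1 with 30. Growth factors and their receptors were represented by 14 of 16 (87.5%), led by the receptor genes Igf2r with 14 and Met with 10. AP-1 and growth response genes were represented by 16 of 21 (76.2%), with a median of 2 peaks and with Myc, Klf6 and Klf4 in the lead. Of the Fos and Jun genes in that list, Fosl2 had 23, Fos and Jun 3 each, Fosb and Junb 1 each, and Fosl1 and Jund 0. Actin and adhesion genes were represented by 17 of 23 (73.9%), led by Tns1 with 22 and Lpp with 21. Over all autosomal genes the share was 31.9%.

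Genes of other cell types were nearest to fewer peaks on the median. Of 15 neuronal genes 7 had at least 1, and the highest count was 3, at Map2. Of 14 hepatocyte genes 4 had a peak, of 14 lymphoid genes 4, of 14 epithelial genes 5 and of 12 muscle genes 7. The highest count among them was 8, at the epithelial factor gene Trp63, above the median of the matrix and of the TGF-β and BMP genes. The neuronal and muscle shares, 46.7% and 58.3%, were above that of all genes, with at most 4 peaks at a muscle gene. Of 12 pluripotency genes 1 did, namely Nanog with 4. The median number was 5 for the matrix list, 7 for the TGF-β and BMP list and 0 for the neuronal, hepatocyte, lymphoid, epithelial and pluripotency lists. Cohesin and CTCF genes themselves had peaks at 3 of 13.

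**Figure D5:**
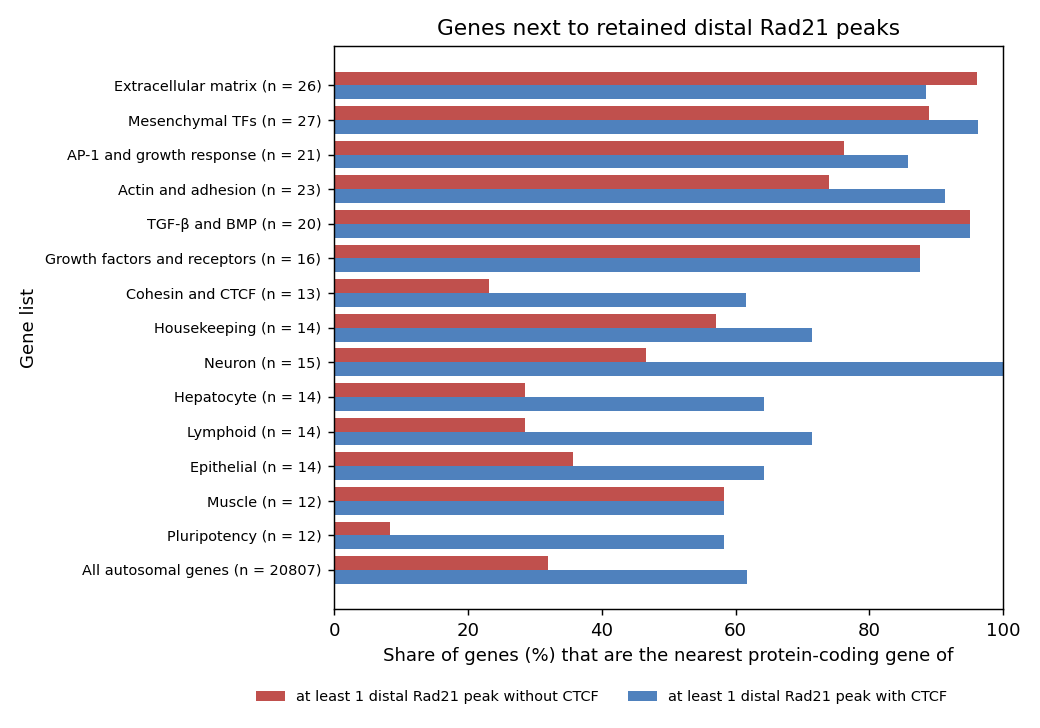
Share (%) of the genes of each list, with n in brackets, that were the nearest protein-coding gene of at least 1 distal Rad21 peak without CTCF (red) or with CTCF (blue). For the matrix list the shares are 96.2% and 88.5%, for the neuronal list 46.7% and 100%, and for all genes 31.9% and 61.7%.

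The length of the stretch around each gene moved with these counts, because its median was 163 kb for the matrix list, 356 kb for the mesenchymal factors and 45.9 kb for all genes. Per length, summed over the genes of a list, there were 3.46 distal non-CTCF peaks per 100 kb for the matrix list, 3.18 for the TGF-β and BMP list and 1.92 for the mesenchymal factors. The neuronal list, with a median stretch of 192 kb, had 0.338, the hepatocyte list 0.164, the lymphoid list 0.357 and the pluripotency list 0.247. The muscle list had 1.74 and the epithelial list 1.49, near the mesenchymal factors and above the autosomal 0.771. The distal CTCF peaks ranged less, at 1.91 per 100 kb for the matrix list, 1.11 for the mesenchymal factors, 0.799 for the neuronal list and 1.18 for the hepatocyte list. Housekeeping genes, with a median stretch of 22.8 kb, had 5.86 distal non-CTCF and 5.67 distal CTCF peaks per 100 kb.

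Many peaks stood in groups. When neighbours at most 12500 bp apart were joined, 2431 peaks (12.8%) fell in 358 clusters of at least 5, of which 39 had at least 10, and 9010 peaks (47.4%) stood alone. The number of clusters depended on the choices made: it was 121 with joining at 5 kb, 683 at 25 kb, 236 with overlap of 50% of both peaks, 83 with lists at a score of at least 50, and 100 for peaks found in both mut and somKO. The median span of a cluster was 26.3 kb, and 156 clusters held no Rad21 peak with CTCF between their ends. The clusters with the most peaks had 21 each, at chr12:69412038-69513757 near Gm9887 and at chr8:10906287-11011907 over Irs2, an adaptor of the insulin receptor. The former held no CTCF-bound Rad21 peak, and its peaks had a median wt percentile of 47.6.

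The cluster near Frmd8 at chr19:5798166-5849685 had 20 peaks, which covered 40.3% of its span, and contained the abundant nuclear noncoding RNA genes Malat1 and Neat1. The cluster near Tubd1 at chr11:86567451-86629847 had 17 peaks, of which 6 held AP-1 letters, and contained Vmp1 and the microRNA gene Mir21a. A cluster of 19 lay over Myh9 and one of 16 lay upstream of Fn1 at chr1:71880466-71948074. At Fn1, 13 of the 16 peaks were in mut and 16 in somKO, and at Frmd8 19 of the 20 were in mut and 17 in somKO. Clusters with fewer peaks in mut were those of Synpo, with 7 of 17 in mut and 17 in somKO, and Zfp36l1, with 7 of 16 and 16.

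The peaks with the highest ranks in all 3 Rad21 lists differed from the bulk. Of the 15 that led by their lowest percentile over the lists, 10 had midpoints under 5 kb from a protein-coding 5′ end, 8 were so wide that they covered one, and 10 overlapped a CTCF peak in mut or somKO. One of the 15, in an exon of Asap1, held AP-1 letters. Among all 18997 peaks 68 covered a protein-coding 5′ end (0.358%) and 453 came within 1 kb of one (2.38%). The rule tested the midpoint only, and only against protein-coding gene starts. The 5′ end of any annotated transcript was covered by 1269 of the 18997 (6.68%) and by 12 of the 15 leading peaks. The widest peak was 8918 bp long, at Klf6, and its midpoint was 2.71 kb from the 5′ end.

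The first was at Ier5, an immediate early gene, at percentile 85.1 in wt, 91.2 in mut and 87.9 in somKO, 1.93 kb from its 5′ end. A remote leading peak lay 140 kb from Tbl1xr1, which encodes a corepressor subunit, at percentiles 83.7, 90.7 and 86.7. Another lay in an intron of Tgfbr3, the type III TGF-β receptor, 160 kb from the 5′ end of Cdc7, at 79.9, 79.2 and 84.1, and overlapped a SmcHD1 wt peak. The leading peak of the matrix list lay 48.3 kb from Col1a2, a chain of type I collagen, at 73.6, 73.8 and 79.3. The central 150 bp of some leading peaks without AP-1 letters in that window are given next as examples. They form no contrast, because the sequences above were chosen for having the letters. Of all distal non-CTCF peaks, 71.0% held none in the central 300 bp. Windows for Ier5 and for Asap1, which held the letters, are not printed.
Peak nearest Tbl1xr1, chr3:21936407-21936556, + strand: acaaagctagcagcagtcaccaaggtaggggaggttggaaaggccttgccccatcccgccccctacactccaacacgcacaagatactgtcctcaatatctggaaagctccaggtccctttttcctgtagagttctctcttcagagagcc
Peak nearest Ssbp2, chr13:91371412-91371561, + strand: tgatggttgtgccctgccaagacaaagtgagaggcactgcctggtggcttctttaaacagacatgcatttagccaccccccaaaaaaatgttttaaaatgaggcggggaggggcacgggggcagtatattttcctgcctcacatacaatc
Peak nearest Cdon, chr9:35422132-35422281, + strand: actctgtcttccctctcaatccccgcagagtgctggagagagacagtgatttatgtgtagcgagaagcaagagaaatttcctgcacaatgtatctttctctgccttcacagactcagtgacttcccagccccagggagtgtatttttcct
Peak nearest Cdc7, chr5:107124393-107124542, + strand: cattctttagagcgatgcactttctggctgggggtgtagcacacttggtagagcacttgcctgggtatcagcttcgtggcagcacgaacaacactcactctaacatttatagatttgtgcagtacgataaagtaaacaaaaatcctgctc
Peak nearest Col1a2, chr6:4456469-4456618, + strand: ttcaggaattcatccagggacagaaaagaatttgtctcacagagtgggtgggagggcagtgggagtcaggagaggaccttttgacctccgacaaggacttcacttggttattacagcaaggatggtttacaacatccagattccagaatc
Peak nearest Klf6, chr13:5864117-5864266, + strand: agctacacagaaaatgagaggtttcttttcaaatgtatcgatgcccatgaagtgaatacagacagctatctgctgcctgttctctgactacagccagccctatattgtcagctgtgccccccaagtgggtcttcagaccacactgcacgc

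Presence in mut and somKO was part of the rule and is described before that step. Of the 22189 distal peaks without CTCF, 46.3% were found in mut, against 71.7% of all autosomal Rad21 wt peaks, and 82.7% in somKO, against 92.7%. The latter share was 51.3% with overlap of 50% of both peaks. In mut or somKO together, 94.1% of all autosomal peaks were found. Of the 18997 retained, 9623 (50.7%) were in both lists, 8734 (46.0%) in somKO only and 640 (3.37%) in mut only. The somKO list is the longer and comes from 4 libraries. Distal peaks with CTCF were found at 82.3% in mut and 97.9% in somKO.

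Score moved with presence. In score group 1, 36.3% of the distal peaks without CTCF and 39.5% of those with CTCF were found in mut. The shares were 53.2% and 53.8% in group 2, 76.7% and 83.2% in group 3, and 90% and 99.1% in group 4, which held 50 of the former. Distal peaks without CTCF were lower than those with CTCF in each group, and in group 2 the counting intervals overlapped.

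The share found in mut varied between chromosomes from 30.8% on chromosome 14 to 61.1% on chromosome 10 (45.8 ± 8.25, SD over 19 autosomes), and the share in somKO from 63.7% on chromosome 14 to 93.0% on chromosome 8. On chromosome 14 it changed along the length. Before 64 Mb, 52.5% of 383 distal peaks without CTCF were found in mut and 83.6% in somKO, and beyond 64 Mb 3.59% of 306 and 38.9%. Distal peaks with CTCF fell on the same boundary from 87.2% to 52.7% in mut and from 98.3% to 90.5% in somKO. The boundary was known from earlier results, and copy number and strain origin of the segment cannot be told apart from genotype here. The density of retained peaks averaged 7.87 ± 2.15 per Mb over the autosomes, from 3.63 on chromosome 14 to 11.7 on chromosome 15.

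Genes differed widely in how many of their distal peaks without CTCF were found in mut. Among 157 genes with at least 15 such peaks, the median share was 46.7%. At Myh9 it was 94.1% and at Phlda1, a growth factor response gene, 88.2%. At Tbx3 it was 2.56%, or 1 of 39, whereas 34 of the 39 were in somKO. The 25 distal peaks with CTCF of the same stretch behaved in the same direction, with 5 in mut and 24 in somKO. At Sox9, the factor of cartilage formation, 5 of 35 were in mut and 29 in somKO, and of 14 peaks with CTCF 9 and 14. At Pappa, a protease of insulin-like growth factor binding proteins, 2 of 22 were in mut and 20 in somKO, and of 8 with CTCF 2 and 8. At Serp2, which lies beyond 64 Mb on chromosome 14, 2 of 35 were in mut and 18 in somKO. These genes were chosen by the mut list itself, so the shares describe extremes.

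The stretch of Tbx3, chr5:119115674-119751667, held 65 Rad21 peaks in wt cells but 8 in mut and 115 in somKO. Its CTCF peaks numbered 36 in wt cells, 19 in mut and 48 in somKO. It also held 31 SmcHD1 peaks in wt and 0 in mut. The neighbouring stretch of Med13l, chr5:118402953-119115673, held 97, 46 and 105 Rad21 peaks and 43 SmcHD1 wt peaks. Its CTCF counts, given in the same order of lists, were 52, 25 and 62. The stretch of Sox9 held 3 SmcHD1 wt peaks and those of Serp2 and Zeb1 held 0. The part of SmcHD1 in the low Rad21 number at Tbx3 in mut was not tested. The somKO list, with the highest number there, is also the longest and comes from 4 libraries of clones made from another wt line. Copy number and strain origin were not tested for any of these stretches either, so their differences between lists cannot be assigned to genotype.

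SmcHD1 was rarely called at the distal non-CTCF peaks. A SmcHD1 wt peak overlapped 268, or 1.41% (1.25 to 1.59), against 2.24% of all autosomal Rad21 wt peaks. The share was 1.78% for the distal CTCF peaks and 4.53% for the promoter peaks without CTCF. In the distal non-CTCF peaks it ran from 0.338% on chromosome 3 to 4.30% on chromosome 5, with an SD of 0.975. Chromosome 5 was also highest for all autosomal Rad21 wt peaks, at 7.35%. In mut cells, which lack the protein, 31 of the distal non-CTCF peaks (0.163%) were overlapped. With overlap of 50% of both peaks the wt share was 0.469%. Among the nearest genes Med13l had 6 and Tbx3 5 of the 268, and the autophagy gene Atg7 had 4. The 268 had a median wt percentile of 43.8 and a median width of 858 bp, and 26.9% (21.9 to 32.5) held AP-1 letters. Of the 285 distal peaks without CTCF that overlapped a SmcHD1 wt peak, 62.8% were found in mut, against 46.0% of the others. By score, the shares were 34.4% and 36.3% in group 1, 62.0% and 53.1% in group 2, and 80.2% and 76.6% in group 3, and the intervals overlapped in all 3.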

How the data were processed

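Per the labels and the methods of the study, the authors aligned reads with bowtie2 to mm10 with strain variants masked, merged the replicates of a group and called narrow peaks with MACS2 below a q-value threshold. The MACS2 version and the use of inputs are not given in the sources used here. The deposited score was read as 10 times −log10 q, since the lowest is 13 in all 8 lists. This reading is inferred, and the score served only to rank peaks within a list.

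Overlaps of at least 1 bp, distances to GENCODE M21 gene starts, motif letters and joined clusters were computed in Python 3.11.15 with numpy 2.4.6, pandas 2.3.3, scipy 1.17.1 and pysam 0.24.0, and were tested on simulated data. Peaks are not replicates, so no p-value was computed. Named genes were the 25 with the most peaks, the first 3 of each list, the nearest genes of the 10 largest clusters and the 15 peaks leading in all lists; other genes, the added motifs and the AP-1 sequences were chosen after their values were seen. The set, the gene lists and these rules were chosen with earlier results of these data known. Libraries of H3K27me3 and of input were not used here.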

Additional observations from a re-analysis of the deposited data

How the results depend on the processing

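Each list merges its replicates, so no replicate could be left out, and depth, which is unknown, limits how many weak peaks reach a list. No paired analysis was possible because the lists carry no replicate columns and no result comes from a test. Of 132 recomputed values, 65 stayed within the 95% interval of the reported value or, for counts, within 1.5 times of it. No choice placed the share of distal non-CTCF peaks with AP-1 letters at or under the 10.5% reported for the distal CTCF peaks. The share of the distal CTCF peaks was not recomputed, so the difference under each choice is unknown. The number of matrix and mesenchymal factor genes with a peak, 49 as reported, was 43 to 50 under all 11 alternatives, which were chosen after seeing the data. The cause of the other changes was not tested. Requiring an overlap of 50% of both peaks, which also lets a wide Rad21 peak over a CTCF peak count as without CTCF, gave 41.3% found in mut, 51.3% found in somKO, 14.2% with CTCF in mut, 17.4% with CTCF in somKO, 0.469% with SmcHD1, 21.3% with AP-1 letters, 13.3% with CTCF letters, a median percentile of 53.2, 236 clusters and 49.3% intronic. Lists kept at a score of at least 50 gave 10184 peaks, 43.6% found in mut, 86.1% found in somKO, 9.16% with CTCF in mut, 15.5% with CTCF in somKO, 0.952% with SmcHD1, 31.4% with AP-1 letters, 6.98% with CTCF letters, a median percentile of 38 and 83 clusters. Lists of equal length by score gave 47.3% found in mut, 69.6% found in somKO, 8.18% with CTCF in mut, 8.74% with CTCF in somKO, 5.67% with CTCF letters and a median percentile of 27.6. A distance of more than 2.5 kb gave 45.1% found in mut, 6.57% with CTCF in mut and 30.3% with AP-1 letters. A distance of more than 1 kb from any annotated transcript start gave 43.7% found in mut, 81.9% found in somKO, 6.1% with CTCF in mut, 1.24% with SmcHD1, 30.7% with AP-1 letters and 50.8% intronic. Presence in both mut and somKO gave 9623 peaks, 10.6% with CTCF in mut, 10.7% with CTCF in somKO, 1.8% with SmcHD1, 29.9% with AP-1 letters, 3.41% with CTCF letters, a median percentile of 29.7, 100 clusters and 53.1% intronic. No CTCF wt peak within 1 kb gave 6.36% with CTCF in mut, 10.4% with CTCF in somKO, 32.5% with AP-1 letters, 5.77% with CTCF letters and a median percentile of 26.5. No overlap with any of the 3 CTCF lists gave 45.1% found in mut, 81.5% found in somKO, 31.3% with AP-1 letters, 2.61% with CTCF letters and a median percentile of 23.4. Leaving out chromosomes 3, 4 and 14 gave 47.6% found in mut and 83.3% found in somKO. Leaving out peaks over 50% soft-masked gave 48.3% found in mut, 83.4% found in somKO, 6.38% with CTCF in mut, 8.78% with CTCF in somKO, 30.1% with AP-1 letters and 2.37% with CTCF letters. Requiring the whole peak to be more than 1 kb away, chosen after seeing the data, gave 45.5% found in mut. Joining at 5 kb gave 121 clusters. Joining at 25 kb gave 683 clusters. Searching the whole peak gave 41.7% with AP-1 letters and 7.07% with CTCF letters.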
